A study of Mus musculus with 28 samples.

Results

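Cytochrome P450 genes of families 1 to 4 were followed through the conversion of mouse fibroblasts into hepatocyte-like cells. The members were the genes whose symbol begins with Cyp, a family number from 1 to 4, a subfamily letter and a gene number. They came to 84 of the 23712 gene rows. Of these, 3 belong to family 1, 50 to family 2, 9 to family 3 and 22 to family 4. RefSeq lists 79 as protein coding and 5 as pseudogenes.

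RNA sequencing covered 28 libraries of C57BL/6 mouse cells in 9 groups. Induced hepatocyte-like (iHep) cells are fibroblasts kept in culture after they received Hnf4a and 1 Foxa gene on pGCDNsam retroviruses. They were sampled as iHep_4a1 with Foxa1 (6 libraries), iHep_4a2 with Foxa2 (4 libraries) and iHep_4a3 with Foxa3 (6 libraries). The 48hr_4a3_del2 cells (2 libraries) received Hnf4a and a Foxa3 mutant named del2, and the labels do not say what that mutant lacks. Their titles give 48 h, their stage label reads iHep, and they were analysed here as 48 h cells. The 48hr_4a1, 48hr_4a2 and 48hr_4a3 cells (2 libraries each) were taken 48 h after the same factor pairs were delivered. Hepatocytes (Hep, 2 libraries) were freed with collagenase from livers of mice aged 10 weeks, whose sex is not given. The starting embryonic fibroblasts (MEF, 2 libraries) came from embryos at 13.5 days. All cells other than Hep and MEF carry introduced Hnf4a, and the groups used here include no cells given empty virus or Hnf4a alone. The labels do not say whether the libraries of a group came from separate embryos, mice or cultures, so p-values measure the spread between libraries, which may be technical.

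Cytochromes P450 of families 1 to 4 are haem enzymes of the endoplasmic reticulum that insert an oxygen atom into drugs, carcinogens, steroids, bile acids and fatty acids. They take electrons from P450 oxidoreductase (Por) and in part from cytochrome b5 (Cyb5a). In adult liver the receptors Ahr, Nr1i3 (CAR), Nr1i2 (PXR) and Ppara, together with Hnf4a, Cebpa and Foxa factors, drive many of them, and their levels are a common yardstick of hepatocyte maturity.

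Libraries held between 14592820 and 51743266 assigned reads. They fell into sets that cross the groups, marked by the small nuclear RNA Rn7sk. It reached at least 10 CPM, the count scaled to library size, in all libraries of 48hr_4a1, 48hr_4a2 and 48hr_4a3, in iHep_4a1 replicates 4 to 6 and in iHep_4a3 replicates 2 to 6, and lay under 10 CPM in the others. The set therefore cannot be told apart from the step between 48hr groups and MEF, or between iHep_4a2 and its 48hr group. Summed levels of 10 hepatocyte markers ran from 2078 to 32199 CPM in iHep libraries and from 204010 to 223181 CPM in Hep, against 12.7 to 14.3 CPM in MEF. Apoa1 alone measured 1827 to 28171 CPM in iHep libraries. Of the 10 markers, 8, 6 and 5 had a median of 1 CPM or more in iHep_4a1, iHep_4a2 and iHep_4a3. In bulk RNA, fewer cells of a type and less RNA per cell cannot be told apart. The transcripts of several members share long identical stretches with relatives, and their split is uncertain. Among 50-base windows, 98.6% of those of Cyp3a41a, 93.5% of Cyp3a41b, 72.1% of Cyp2c40 and 54.8% of Cyp2c69 occur in another gene's transcripts too, against 0% for Cyp2c70 and Cyp1b1.

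Few members were expressed outside the liver cells, and iHep cells added a handful to the fibroblast set. A member was counted as expressed in a group when its median level was at least 1 CPM. By that measure 21 members were expressed in iHep_4a1, 16 in iHep_4a2 and 14 in iHep_4a3. In 48hr_4a3_del2 cells the number was 11, against 14 in 48hr_4a3, and the other 48 h groups had 13 (48hr_4a1) and 12 (48hr_4a2). Hep expressed 59 and MEF 11. Of all gene rows, between 51.3% and 54.8% were expressed in a group, with the lowest share in Hep. Single libraries held 17 to 26 members at 1 CPM or more in iHep_4a1, 15 to 18 in iHep_4a2 and 12 to 17 in iHep_4a3, against 9 and 13 in MEF. Both Hep libraries held 59. The iHep_4a1 and iHep_4a2 ranges lay above both MEF libraries, whereas that of iHep_4a3 overlapped them.

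FPKM, which scales the count to library size and transcript length, summed over the members to 142 ± 51.4 in iHep_4a1 (SD, n = 6), 73.2 ± 17.1 in iHep_4a2 (n = 4) and 72.8 ± 10.7 in iHep_4a3 (n = 6). Hep held 10005 and 10539 FPKM, and MEF 43.26 and 43.23 FPKM. As a share of the Hep mean, the iHep_4a1, iHep_4a2 and iHep_4a3 sums came to 1.38%, 0.712% and 0.709%. At 48 h the sums were 66.2 FPKM in 48hr_4a3_del2, against 54.5 in 48hr_4a3, and 55.7 and 57.1 in 48hr_4a1 and 48hr_4a2. Every iHep library summed above both MEF libraries, with a lowest value of 57.3 FPKM in iHep_4a3 replicate 2. Members took between 0.0142% and 0.055% of the reads of an iHep library and between 1.89% and 2.00% of those of a Hep library.

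**Figure D1:**
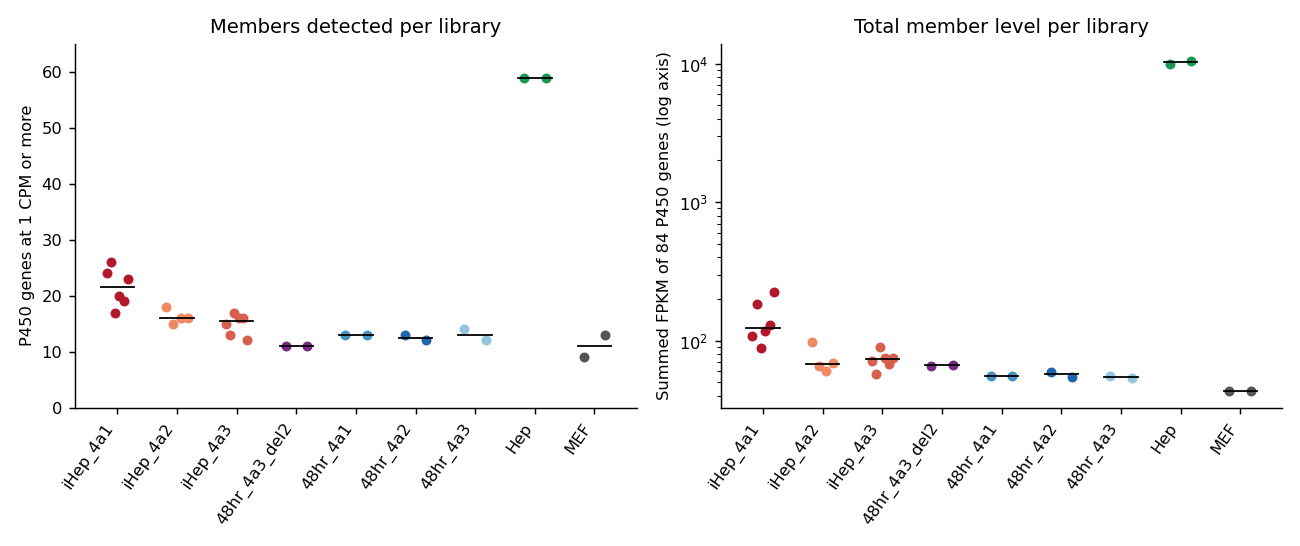
Members at 1 CPM or more (left panel) and summed FPKM of the 84 members on a log axis (right panel) in each of the 28 libraries, with black lines at group medians. Hep libraries hold 59 members each, and every iHep library lies above the 43.2 FPKM of MEF and under 224 FPKM.

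The sharing of members between groups was uneven. Expression in Hep and no other group was seen for 34 members, and 22 were expressed in no group, 5 of which had 0 counts in all 28 libraries (Cyp2c53-ps, Cyp2j11, Cyp4a29, Cyp4a30b and Cyp4x1). All 9 groups expressed 7 members, namely Cyp2j13, Cyp2j6, Cyp2u1, Cyp4f13, Cyp4f16, Cyp4f17 and Cyp4v3. Cyp1b1 was expressed in every group but Hep. All 3 iHep groups expressed 10 members, which were those 8 and Cyp2d22 and Cyp2s1. At least 1 iHep group expressed 25 members, while 37 were expressed in Hep and in no iHep group.

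The adult repertoire that iHep cells are set against was dominated by family 2, which gave 76.4% of the summed FPKM in Hep, beside 16.1% for family 3, 5.54% for family 4 and 1.98% for family 1. Cyp2e1, which oxidises ethanol and paracetamol, was the highest member in Hep, and it reached at most 1.62 FPKM in an iHep library, against 1566 and 1952 FPKM in Hep. Cyp3a11, the main drug-metabolising Cyp3a of mouse liver, reached at most 2.69 FPKM in an iHep library, against 754.7 and 1007 FPKM in Hep. Every iHep library thus held far less of both enzymes than either Hep library. Among the Cyp2c epoxygenases and steroid hydroxylases, Cyp2c69 had 0 in every iHep library, against 901 and 637.7 FPKM in Hep. Cyp2c40 likewise had 0 in every iHep library, against 494 and 414.1 FPKM in Hep. The reads of this pair are hard to divide between them in Hep, whereas iHep cells had none to divide. Cyp2c29 reached at most 0.04 FPKM in an iHep library, against 586.3 and 603.5 FPKM in Hep, and Cyp2c68 at most 0.04 FPKM, against 352.9 and 404.3 FPKM. Cyp2c37 reached at most 0.2 FPKM in an iHep library, against 269.6 and 486.9 FPKM in Hep, and Cyp2c50 at most 0.05 FPKM, against 217.7 and 354.1 FPKM. The coumarin hydroxylase Cyp2a5 reached 3.22 FPKM in iHep_4a1 replicate 6, its highest iHep library, against 393.1 and 383.7 FPKM in Hep. Cyp2a12, a steroid hydroxylase, reached 5.93 FPKM in an iHep_4a1 library, against 376.8 and 346.4 FPKM in Hep. These members belong to subfamilies that make up much of the drug-metabolising capacity of mouse liver. In all, 51 members were at 10 CPM or more in Hep and 38 at 100 CPM or more, and no member reached 100 CPM as a median in an iHep group.

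Differences were tested on the counts of 67 members that passed a filter on low counts together with the other genes of the table. Many of the 67 passed through their level in Hep, so their counts are a description of the families and not evidence about them. The 17 members left out stayed under 8.2 CPM in every library, the highest being Cyp2d34 at 8.19 CPM in iHep_4a1 replicate 2. Calls are those of edgeR's quasi-likelihood test with p-values adjusted by Benjamini and Hochberg over all 16499 genes tested, and the threshold was 0.05.

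Against MEF, iHep_4a1 had 16 members called higher and 3 called lower, iHep_4a2 had 6 higher and 3 lower, and iHep_4a3 had 9 higher and 7 lower. Over all genes, 39.9% were called in iHep_4a1 (20.0% higher and 19.9% lower), 30.7% in iHep_4a2 (15.3% and 15.5%) and 46.6% in iHep_4a3 (22.9% and 23.7%). The share called among members was below that background in each (19, 9 and 16 of 67). The median log2 change of the tested members was 1.58 in iHep_4a1, 0.10 in iHep_4a2 and 0.07 in iHep_4a3, beside 0.08, 0.06 and 0.05 over all genes. These counts rest on both MEF libraries, and the share of all genes called also fell when either was left out. Without MEF replicate 1 or replicate 2 the members called numbered 6 and 6 in iHep_4a1, 4 and 5 in iHep_4a2 and 8 and 10 in iHep_4a3.

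A member was taken as gained when it was called higher than in MEF, had a median of at least 1 CPM in the iHep group and a median under 1 CPM in MEF. The gained members numbered 8 in iHep_4a1, 4 in iHep_4a2 and 5 in iHep_4a3, which made 12 genes in all. Cyp2s1 was gained by all 3 groups. Cyp2c70 was gained by iHep_4a1 and iHep_4a3, Cyp2b10 by iHep_4a1 and iHep_4a2, and Cyp1a1 by iHep_4a2 and iHep_4a3. Cyp2c65, Cyp2d26, Cyp2d37-ps, Cyp3a13 and Cyp3a16 met the rule in iHep_4a1, Cyp2b9 in iHep_4a2, and Cyp2d22 and Cyp3a44 in iHep_4a3. With either MEF library left out, 2 and 3 members were gained by iHep_4a1, 1 and 1 by iHep_4a2, and 2 and 4 by iHep_4a3. Cyp2s1 was among them each time. The rule was not applied to all genes, so whether these numbers are many or few for a gene set was not tested.

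Because the introduced factors bind DNA, the 250 bases before the start site were read from RefSeq on GRCm38.p6 for the 65 members with a window there. Each window was searched on both strands for an HNF4 element, CAAAGTCCA, and a FOXA element, TNTTTAC. The HNF4 element lay in the windows of 10 members (15.4%), against 0.384% of all 32851 windows. The 10 were Cyp2c40, Cyp2c65, Cyp2c67, Cyp2c68, Cyp2c69, Cyp2c70, Cyp3a11, Cyp3a16, Cyp3a41a and Cyp3a41b, and relatives among them share sequence. The FOXA element lay in those of 13 members (20%), against 10.9% of all windows. Other elements were searched too. A C/EBP element lay in the windows of 14 members (21.5%), against 9.56% of all windows. A xenobiotic response element lay in 1.54% of members, against 4.1% of all windows, and a direct repeat element in 0, against 0.0335%. A raised share was thus not limited to elements of the introduced factors. Member shares are of 65 genes with 72 windows, and the others of 32851 windows. Among gained members, Cyp2c70, Cyp2c65 and Cyp3a16 held an HNF4 element. Their windows are printed with that of Cyp2c69, which holds the HNF4 element and had 0 counts in every iHep library. That of Cyp2s1, which holds neither an HNF4 nor a FOXA element, is printed too. Capitals mark the HNF4 and FOXA elements, all on the strand shown, 5′ to 3′. They lie at chr19:40187287-40187536 (minus strand) for Cyp2c70, chr19:39060756-39061005 (plus) for Cyp2c65, chr5:145469724-145469973 (minus) for Cyp3a16, chr19:39886770-39887019 (minus) for Cyp2c69 and chr7:25816526-25816775 (minus) for Cyp2s1.
Cyp2c70: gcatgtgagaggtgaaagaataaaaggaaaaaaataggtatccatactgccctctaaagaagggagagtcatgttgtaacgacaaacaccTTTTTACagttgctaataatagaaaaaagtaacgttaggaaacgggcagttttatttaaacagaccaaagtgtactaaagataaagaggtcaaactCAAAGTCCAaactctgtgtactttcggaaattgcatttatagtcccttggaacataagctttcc
Cyp2c65: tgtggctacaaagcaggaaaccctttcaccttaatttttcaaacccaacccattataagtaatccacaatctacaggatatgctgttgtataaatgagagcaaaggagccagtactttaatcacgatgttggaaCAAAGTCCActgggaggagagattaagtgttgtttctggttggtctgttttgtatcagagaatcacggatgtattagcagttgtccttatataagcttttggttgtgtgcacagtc
Cyp3a16: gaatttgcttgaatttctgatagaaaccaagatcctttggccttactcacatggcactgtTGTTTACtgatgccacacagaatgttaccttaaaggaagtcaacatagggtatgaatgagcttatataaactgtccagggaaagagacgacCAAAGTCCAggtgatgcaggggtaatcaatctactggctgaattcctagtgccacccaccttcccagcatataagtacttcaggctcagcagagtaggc
Cyp2c69: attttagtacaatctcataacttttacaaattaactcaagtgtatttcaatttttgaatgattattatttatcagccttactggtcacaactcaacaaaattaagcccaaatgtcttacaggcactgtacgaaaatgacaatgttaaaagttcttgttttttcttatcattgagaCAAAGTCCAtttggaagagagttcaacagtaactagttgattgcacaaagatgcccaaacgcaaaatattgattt
Cyp2s1: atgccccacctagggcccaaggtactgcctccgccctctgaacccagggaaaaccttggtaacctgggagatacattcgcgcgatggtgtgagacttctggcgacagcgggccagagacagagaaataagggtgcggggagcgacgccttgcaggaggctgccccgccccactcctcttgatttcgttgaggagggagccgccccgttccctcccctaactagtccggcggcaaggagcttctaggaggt
The HNF4 element began 64 bases before the start of Cyp2c70, 116 before that of Cyp2c65, 99 before that of Cyp3a16 and 75 before that of Cyp2c69. A match of letters is a description and shows no binding.

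Cyp2s1, an epithelial P450 known for retinoid and prostaglandin metabolism outside the liver, was the highest member in iHep_4a1 and iHep_4a3 by mean FPKM. In iHep_4a1 it measured 28.9, 54.1 and 30.1 CPM in replicates 1 to 3 and 102, 188 and 294 CPM in replicates 4 to 6. In iHep_4a2 it measured 58.2, 22.0, 40.1 and 19.997 CPM, and in iHep_4a3 between 22.5 and 92.2 CPM with a median of 63.9. It was at 1.09 to 1.53 CPM in the 48 h cells other than 48hr_4a3_del2, at 0 in both Hep libraries, and at 0.575 and 0.190 CPM in MEF. Every iHep library lay above every library of any other group. Summed levels of 5 cholangiocyte markers ran from 426 to 3943 CPM in iHep libraries, against 15.4 and 16.2 CPM in Hep and 70.0 and 33.5 CPM in MEF, and the part of such cells in the Cyp2s1 level was not tested. Against MEF Cyp2s1 rose on the log2 scale by 8.23 ± 1.15 in iHep_4a1 (SE; edgeR, adjusted p = 1.03e-05), by 6.50 ± 1.09 in iHep_4a2 (adjusted p = 0.00012) and by 7.35 ± 1.11 in iHep_4a3 (adjusted p = 1.97e-05). These calls held under each of the 16, 14 and 16 alternatives run for them. Against Hep, where it had 0 counts, it was at least 627-fold, 189-fold and 340-fold higher, taking 3 counts over the Hep libraries as the floor. The iHep_4a1 libraries with high Rn7sk (replicates 4 to 6) were the 3 highest of their group, and the part of the set in that spread was not tested.

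Cyp2c70, which makes the muricholic acids of mouse bile, was gained at a low level. It measured 2.17, 4.08, 1.91, 2.26, 3.87 and 1.97 CPM in iHep_4a1, 4.27, 0.548, 0.535 and 0.786 CPM in iHep_4a2, and 0.482 to 4.72 CPM in iHep_4a3 with a median of 1.79. Hep held 635 and 626 CPM, and MEF 0 and 0.0951 CPM. All 16 iHep libraries exceeded both MEF libraries and stayed under 1% of the Hep mean. The change against MEF was called in all 3 groups (edgeR adjusted p = 0.00271, 0.0138 and 0.00325), and the iHep_4a1 call held under every alternative. The iHep_4a2 call was lost with limma, with the compared groups alone and without either MEF library, and the iHep_4a3 call in the low-Rn7sk set alone and without MEF replicate 1. In 48hr_4a3_del2 it was at 0.219 and 0.220 CPM, against 0 in both 48hr_4a3 libraries.

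Cyp2c65, a Cyp2c expressed chiefly in mouse intestine, differed widely among iHep_4a1 libraries. It measured 1.18, 77.7, 1.85, 11.7, 12.1 and 4.40 CPM there, 0.438, 0.966, 0.252 and 1.32 CPM in iHep_4a2 and 0.0643 to 1.59 CPM in iHep_4a3. Both Hep and both MEF libraries held 0. In iHep_4a1 it was called higher than in MEF with no overlap (edgeR adjusted p = 0.00726). The call held without replicate 2, which carried most of the signal, and was lost without either MEF library. A share of 20.7% of its 50-base windows occurs in other genes, nearly all in Cyp2c66, so the split between these relatives is uncertain. Replicate 2, with 77.7 CPM, also had the highest sum over 7 intestinal markers, 3696 CPM, against 234 to 1245 CPM in the other iHep_4a1 libraries, 109 to 113 CPM in Hep and 4.52 to 5.65 CPM in MEF. Lgals4 (2406 CPM) and Vil1 (962 CPM) gave most of that replicate's sum, with Cdx2 at 170 CPM and Cdh17 at 158 CPM. Cdx1 stood at 0 there, Muc2 at 0.235 CPM and Fabp2 at 0.314 CPM. In Hep, Fabp2 measured 85.6 and 93.5 CPM, and Cdx1, Cdx2, Cdh17 and Muc2 stood at 0. The part of such cells or programmes in Cyp2c65 was not tested.

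The same replicate carried most of the iHep_4a1 signal of Cyp3a13 and Cyp2d26, both gained by that group. Cyp3a13, a Cyp3a of gut and liver, measured 121 CPM in replicate 2 and 0 to 2.13 CPM in the other 5, against 326 and 375 CPM in Hep and 0.0958 and 0.0476 CPM in MEF. Cyp2d26 measured 8.04 CPM in replicate 2 and 0 to 2.09 CPM in the others, against 694 and 766 CPM in Hep and 0.0479 and 0.0476 CPM in MEF. Their iHep_4a1 medians were 1.10 and 1.32 CPM, so both were barely counted as expressed, and single iHep_4a1 libraries had 0 of each. The edgeR adjusted p against MEF was 0.0241 for Cyp3a13 and 0.0252 for Cyp2d26, and without replicate 2 Cyp3a13 was gained and Cyp2d26 was not. The pseudogene Cyp2d37-ps ranged from 0 to 2.60 CPM in iHep_4a1 with a median of 1.39, against 12.7 and 17.8 CPM in Hep and 0 in MEF (at least 17.0-fold over MEF, edgeR adjusted p = 0.0236). The calls of Cyp3a13, Cyp2d26 and Cyp2d37-ps were each lost without either MEF library and with the compared groups alone. Those of Cyp3a13 and Cyp2d26 were also lost with limma, those of Cyp2d26 and Cyp2d37-ps in the low-Rn7sk set alone, and that of Cyp2d37-ps with the replicate block.

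Cyp3a16, a Cyp3a known from fetal and young mouse liver, was split by library set within iHep_4a1. Replicates 4 to 6 of iHep_4a1 measured 5.13, 5.63 and 3.52 CPM, and replicates 1 to 3 measured 0.0619, 0.392 and 0 CPM. Hep held 8.57 and 2.99 CPM, and MEF 0 in both libraries. The high-Rn7sk replicates of iHep_4a1 thus lay in the range of Hep, and its low-Rn7sk ones near 0. In iHep_4a3 the gene measured 0.103 to 0.798 CPM in replicates 2 to 6 (high Rn7sk) and 0.132 CPM in replicate 1 (low). The 48hr_4a1, 48hr_4a2 and 48hr_4a3 libraries, all high in Rn7sk, held 0. In iHep_4a1 Cyp3a16 was called against MEF (at least 34.3-fold, edgeR adjusted p = 0.016). The call was lost with the set as a term, in the low set alone, with a replicate block, with the compared groups alone, and without either MEF library. Cyp3a44 was gained by iHep_4a3, at 1.32, 0.379, 2.38, 0.581, 3.12 and 0.721 CPM, against 129 and 37.4 CPM in Hep and 0 in MEF (at least 19.8-fold over MEF, edgeR adjusted p = 0.0201). In iHep_4a2 it had 0 counts in all 4 libraries, and in iHep_4a1 it ranged from 0 to 2.69 CPM with a median of 0.865. The iHep_4a3 call of Cyp3a44 too was lost without either MEF library, with the replicate block and with the library set as a term. Without iHep_4a3 replicate 1, 3 or 5 it was not gained.

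Cyp2b10, the standard target of CAR, measured 10.48, 8.83, 0.882 and 1.39 CPM in iHep_4a2 and 0.515 to 29.3 CPM in iHep_4a1 with a median of 1.52. The highest value came from iHep_4a1 replicate 6. In iHep_4a3 it ranged from 0.298 to 1.197 CPM and was not called. Hep held 72.3 and 48.9 CPM, and MEF 0 and 0.0476 CPM. Every iHep library lay above MEF and below Hep. The edgeR adjusted p against MEF was 0.0107 in iHep_4a1 and 0.0172 in iHep_4a2. Both calls were lost without either MEF library, and that of iHep_4a1 also with the compared groups alone. Its neighbour Cyp2b9 measured 15.0, 0.902, 3.05 and 1.25 CPM in iHep_4a2, against 885 and 901 CPM in Hep and 0 and 0.143 CPM in MEF (edgeR adjusted p = 0.0255). That call was lost without iHep_4a2 replicate 1, the library with 15.0 CPM, and without either MEF library.

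Cyp1a1, the classic target of the aryl hydrocarbon receptor Ahr, came closest to its Hep level among the gained members, in iHep_4a3. It measured 0.231, 9.06, 7.84, 2.29, 10.2 and 4.00 CPM in iHep_4a3, 3.43, 2.83, 1.17 and 1.04 CPM in iHep_4a2, and 0 to 3.61 CPM in iHep_4a1 with a median of 0.466. Hep held 4.77 and 4.36 CPM, and MEF 0 in both. Against MEF it was at least 78.3-fold higher in iHep_4a3 (edgeR adjusted p = 0.0033) and at least 29.6-fold higher in iHep_4a2 (adjusted p = 0.0153). The iHep_4a2 call was lost with limma and without either MEF library, and the iHep_4a3 call in the low-Rn7sk set alone. In iHep_4a3 the difference from Hep was 0.30 on the log2 scale (edgeR adjusted p = 0.846), which does not show equal levels. The lowest value, 0.231 CPM, belongs to iHep_4a3 replicate 1, its only low-Rn7sk library, and in that set alone the difference from Hep was -4.37. Cyp1a2, the liver-restricted enzyme of the same locus, stayed under 0.1 CPM in every iHep library, against 756 and 673 CPM in Hep.

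Cyp2d22, the mouse Cyp2d often compared with human CYP2D6, measured 4.199, 8.85, 5.69, 6.64, 3.12 and 7.498 CPM in iHep_4a3, against 164 and 180 CPM in Hep and 0.192 and 1.33 CPM in MEF. All 6 iHep_4a3 libraries exceeded both MEF libraries. It rose 7.88-fold over MEF (log2 2.97 ± 0.82 SE, edgeR adjusted p = 0.00518), a call lost without MEF replicate 1 and in the low-Rn7sk set alone. It was already at 1.03 to 1.48 CPM in the 48 h cells other than 48hr_4a3_del2, and at 1.66 and 1.60 CPM in 48hr_4a3_del2.

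**Figure D2:**
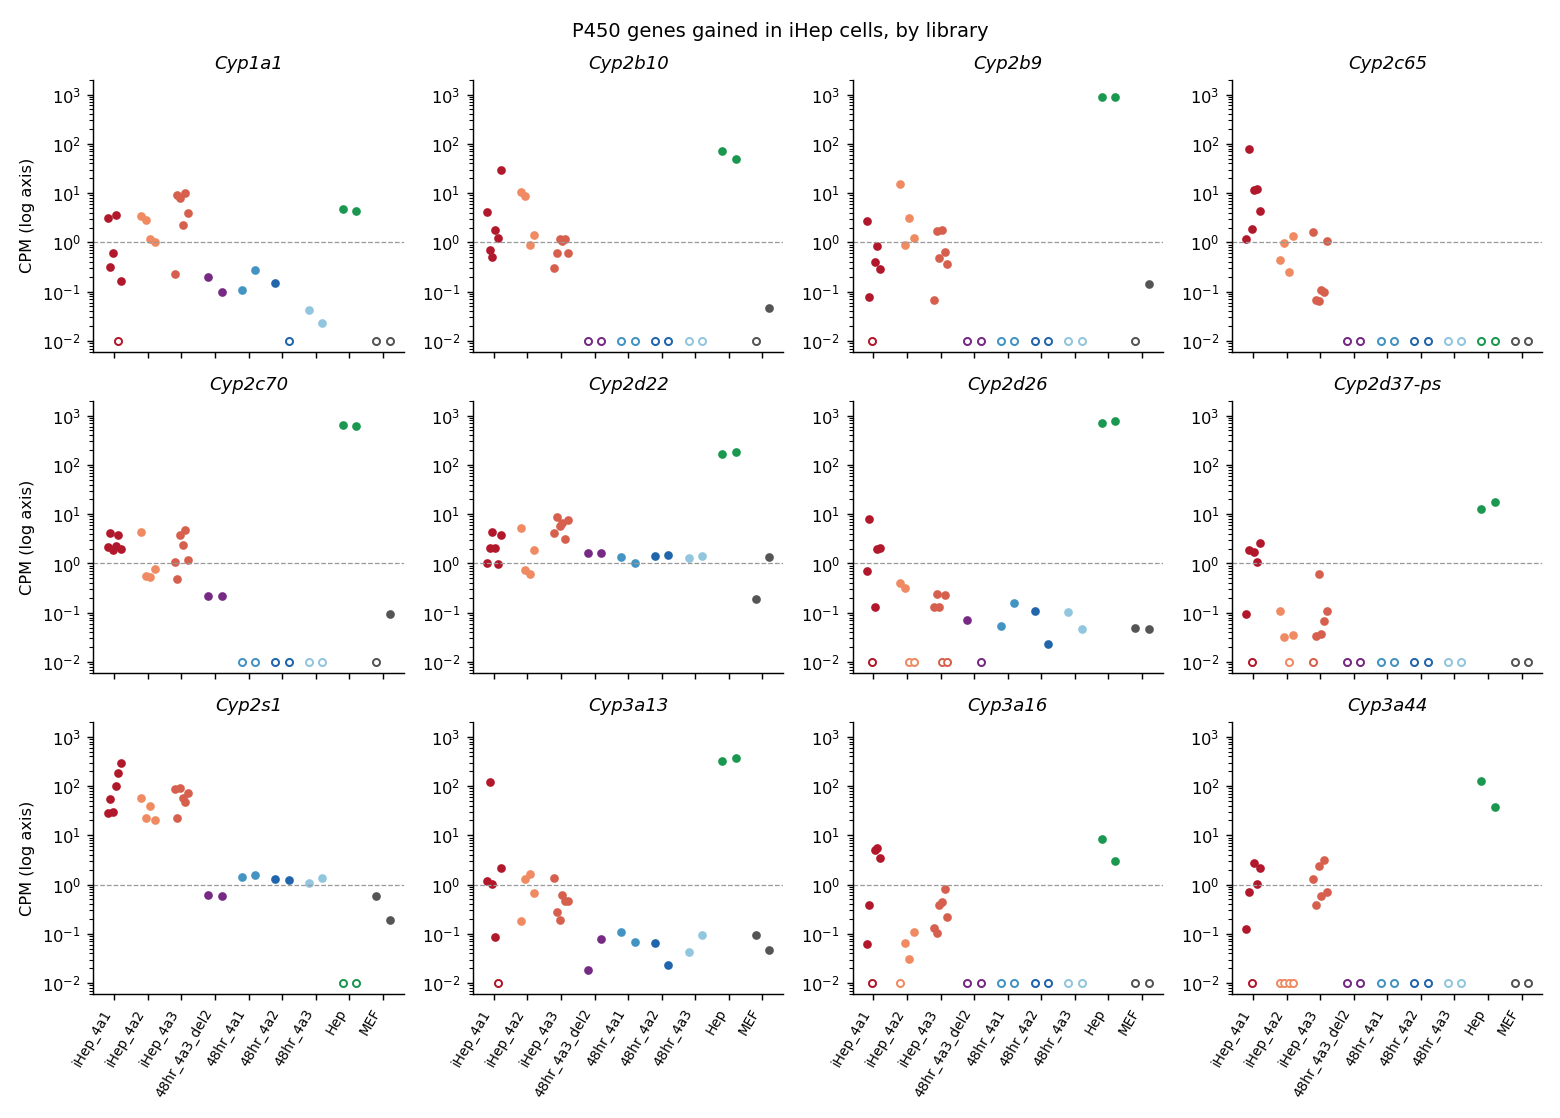
CPM of the 12 gained members in each library on a log axis, by group, with open circles at 0.01 for libraries with 0 counts and a dashed line at 1 CPM. Cyp2s1 is above 19 CPM in all 16 iHep libraries, whereas most other gained members lie near the line and far under Hep.

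Called members beyond the gained ones were of several kinds. Cyp4f13, a fatty acid and leukotriene hydroxylase present in all groups, rose in all iHep groups, to 13.6 ± 3.71, 11.3 ± 2.51 and 13.9 ± 1.52 CPM in iHep_4a1, iHep_4a2 and iHep_4a3 (SD, n = 6, 4 and 6), against 107 and 98.5 CPM in Hep and 4.94 ± 0.281 CPM in MEF (n = 2). No iHep library overlapped MEF, the log2 changes were 1.47, 1.19 and 1.49 (edgeR adjusted p = 7.37e-05, 0.00107 and 4.87e-05), and they held under every alternative. The related Cyp4f17 rose in iHep_4a3, to 11.5 ± 1.93 CPM (n = 6), against 3.79 ± 0.422 CPM in MEF (edgeR adjusted p = 0.00648). That call was lost with the library set as a term, in the low-Rn7sk set alone and without either MEF library. In iHep_4a1 it split with the set, at 2.66, 2.82 and 4.69 CPM in replicates 1 to 3 and 11.1, 10.2 and 9.84 CPM in replicates 4 to 6. The remaining higher calls in iHep_4a1, with medians under 1 CPM, were Cyp1a1, Cyp2a22, Cyp2d9, Cyp2d10, Cyp2d40, Cyp3a44 and Cyp4f14, and those in iHep_4a3 were Cyp3a41a and Cyp3a41b.

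Several members of the fibroblast set were lower in iHep cells. Cyp1b1, which hydroxylates oestradiol and is typical of mesenchymal cells, was the highest member in MEF by FPKM. It measured 3.87, 15.5, 14.3, 28.1, 23.5 and 20.6 CPM in iHep_4a3, against 0 in Hep and 103 and 79.0 CPM in MEF. It fell 5.17-fold in iHep_4a3 (edgeR adjusted p = 0.02), a call lost with the library set as a term, with the replicate block and without either MEF library. In iHep_4a1 it measured 94.4, 18.4 and 111 CPM in replicates 1 to 3 and 7.26, 5.69 and 13.4 CPM in replicates 4 to 6, and in iHep_4a2 47.5, 91.6, 18.4 and 137 CPM. Values near those of MEF and values under 20 CPM thus occurred in the same group. The summed level of the fibroblast markers lay between 350 and 1492 CPM in iHep libraries, against 40483 to 43913 CPM in MEF. Cyp2j9, an epoxygenase, fell 13.4-fold, 21.7-fold and 9.28-fold in iHep_4a1, iHep_4a2 and iHep_4a3. Its iHep means were 0.161, 0.0989 and 0.231 CPM, against 1.15 and 3.14 CPM in MEF. Without MEF replicate 2 none of these 3 calls held. Further lower calls, for Cyp2c29, Cyp2c40, Cyp2c68 and Cyp4a12b, concerned genes at or under 0.476 CPM in MEF.

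Cyp4v3, the mouse counterpart of the human fatty acid hydroxylase CYP4V2, differed between iHep groups. It measured 4.17, 3.03, 3.44, 1.74, 6.65 and 2.34 CPM in iHep_4a3, against 517 and 567.97 CPM in Hep and 17.6 and 20.3 CPM in MEF. It fell by 2.41 on the log2 scale in iHep_4a3 against MEF (SE 0.46, edgeR adjusted p = 0.000224). In iHep_4a1 it measured 76.6, 24.4, 18.2, 25.7, 27.1 and 64.7 CPM, and in iHep_4a2 13.7, 18.9, 7.68 and 5.14 CPM. Each iHep_4a1 library lay above every iHep_4a3 library.

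Set against Hep, nearly all tested members were lower in iHep cells. iHep_4a1 had 55 members called lower and 5 called higher, iHep_4a2 55 and 3, and iHep_4a3 59 and 4, while 60.1%, 60.6% and 61.9% of all genes were called in these comparisons. Over all genes the shares called lower were 24.8%, 25.4% and 26.7%, and those called higher 35.3%, 35.2% and 35.3%. The median log2 change of the tested members was -8.14 in iHep_4a1, -10.62 in iHep_4a2 and -10.68 in iHep_4a3, beside 0.42, 0.42 and 0.39 over all genes. All 55, all 55 and 58 of 59 members called lower had no overlap with Hep, a count that was not made over all genes. Of the 59 members expressed in Hep, 41, 46 and 45 had a mean under 1% of the Hep mean in iHep_4a1, iHep_4a2 and iHep_4a3, and the median member stood at 0.156%, 0.029% and 0.0255%. Of the same 59, 25 stayed under 1 CPM in every iHep library. No iHep library had a count for 9 of those (Cyp2c38, Cyp2c39, Cyp2c40, Cyp2c54, Cyp2c67, Cyp2c69, Cyp2g1, Cyp4a14 and Cyp4f15).

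Few members reached 10% of their adult level. Over 10% of the Hep mean were 11 members in iHep_4a1, 7 in iHep_4a2 and 7 in iHep_4a3. Cyp1a1, Cyp2j6, Cyp2u1, Cyp4f13, Cyp4f16 and Cyp4f17 were over 10% in all 3 iHep groups, and of these Cyp2j6, Cyp2u1, Cyp4f16 and Cyp4f17 were over 10% in MEF as well. The others in iHep_4a1 were Cyp2c55 (77.8% of the Hep mean), Cyp3a16 (42.5%), Cyp2j13 (14.8%), Cyp4b1 (14.7%) and Cyp2b10 (10.4%). Of these, Cyp2c55 rested on replicate 2, at 24.5 CPM against at most 0.174 CPM in the other 5, and Cyp2b10 mainly on replicate 6. Cyp4b1 was also over 10% in iHep_4a2 and Cyp2j13 in iHep_4a3. The epoxygenase Cyp2j6 measured 28.7, 28.5 and 20.7 CPM in iHep_4a1 replicates 4 to 6, 10.0, 20.1 and 10.51 CPM in replicates 1 to 3, 9.75 to 26.9 CPM in iHep_4a2 and 6.65 to 20.7 CPM in iHep_4a3, against 139 and 136 CPM in Hep and 15.1 and 17.0 CPM in MEF. The iHep values lay on both sides of the MEF values. Cyp4f16 was higher than in Hep in iHep_4a1, iHep_4a2 and iHep_4a3 by 1.32, 1.02 and 1.58 on the log2 scale (edgeR adjusted p = 0.000546, 0.0059 and 8.45e-05), with 10.1 to 19.5 CPM, 9.96 to 15.1 CPM and 11.5 to 21.1 CPM in the iHep groups, against 5.14 and 6.72 CPM in Hep and 12.9 and 10.0 CPM in MEF. Cyp1b1 was at least 225-fold, 398-fold and 95.3-fold higher than in Hep, which had 0 counts. The other members called higher than in Hep were Cyp2s1 in all 3 groups, Cyp4f17 in iHep_4a1 and iHep_4a3 and Cyp2c65 in iHep_4a1.

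**Figure D3:**
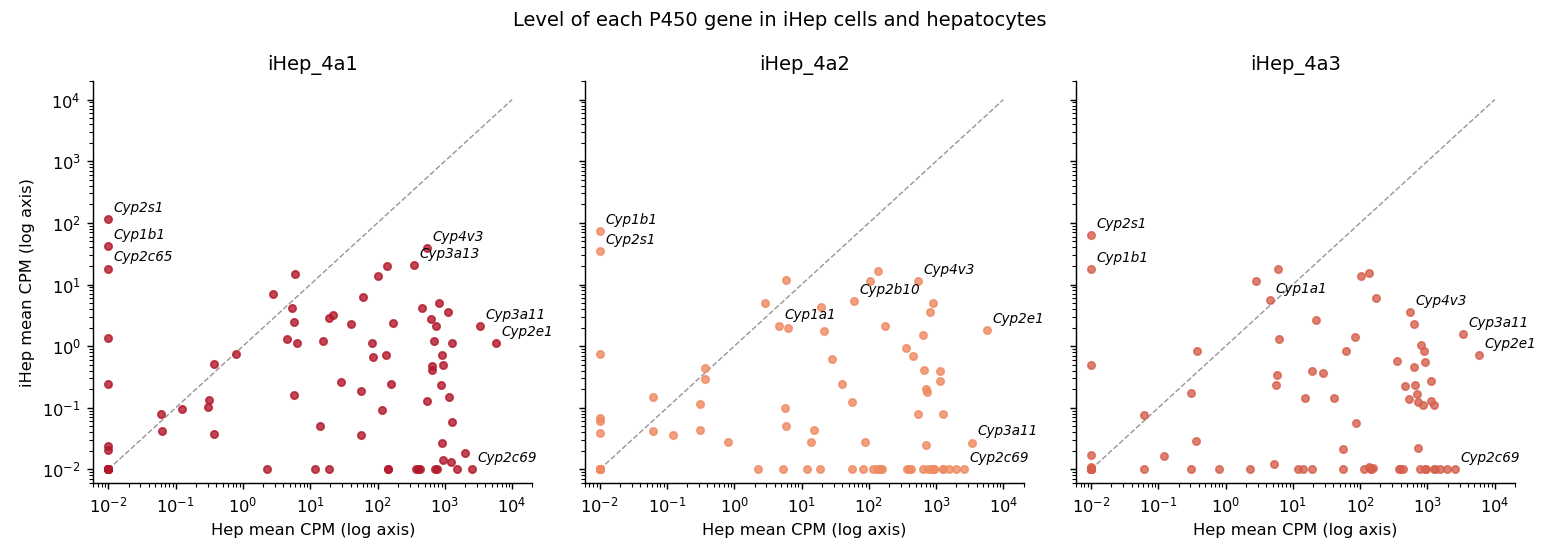
Mean CPM of each member in iHep_4a1, iHep_4a2 and iHep_4a3 (vertical axes) against its mean in Hep (horizontal axes), both on log axes with values under 0.01 drawn at 0.01 and a dashed line of equal levels. Most members lie far under the line, with 41, 46 and 45 of the 59 Hep-expressed members under 1% of Hep.

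The contrast of the end points sets the scale. Hep had 55 members called higher than MEF and 2 lower, while 56.9% of all genes were called (24.3% higher and 32.6% lower). The median log2 change of the tested members was 12.45, beside -0.29 over all genes. The pair lower in Hep were Cyp1b1, at least 492-fold, and Cyp4f16, by 0.95 on the log2 scale. The 8 members of the pericentral zone of the liver lobule (Cyp2e1, Cyp1a2, Cyp2c29, Cyp2c37, Cyp2c50, Cyp2c54, Cyp3a11 and Cyp2a5) were all among those higher in Hep than in MEF. None of the 8 was called higher than MEF in iHep_4a1, iHep_4a2 or iHep_4a3, beside 20.0%, 15.3% and 22.9% of all genes. All 8 were lower than Hep in each, beside 24.8%, 25.4% and 26.7% of all genes. Members such as Cyp2c54, with 0 counts in every iHep library, were tested because of their level in Hep. The periportal Cyp2f2 varied widely, with 3.28, 0.431, 17.4, 5.22, 0.0569 and 3.68 CPM in iHep_4a1, against 769 and 844 CPM in Hep and 0.192 and 0.809 CPM in MEF, and was not called against MEF in any iHep group.

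No member was called against MEF in 48hr_4a1, 48hr_4a2 or 48hr_4a3. Over all genes, 5.25% were called against MEF in 48hr_4a1 (2.13% higher and 3.12% lower), 5.48% in 48hr_4a2 (2.20% and 3.28%) and 5.21% in 48hr_4a3 (2.22% and 2.98%). At an unadjusted p under 0.05, edgeR gave 6, 5 and 5 members. DESeq2 called 1, 2 and 1 and limma 1, 2 and 2 at an adjusted p under 0.05. Cyp2f2 measured 2.59 and 2.83 CPM in 48hr_4a1, 2.98 and 3.54 CPM in 48hr_4a2 and 3.81 and 3.21 CPM in 48hr_4a3, against 0.192 and 0.809 CPM in MEF. All 6 libraries lay above both MEF libraries, yet the difference in 48hr_4a3 was 2.80 ± 1.51 on the log2 scale (SE, edgeR adjusted p = 0.267). Cyp2c23, an arachidonic acid epoxygenase, measured 0.585 to 1.36 CPM in those libraries, against 0.287 and 0.0951 CPM in MEF (edgeR adjusted p = 0.110 for 48hr_4a3). MEF libraries belong to the low-Rn7sk set and these 48 h libraries to the high one.

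The established cells were then set against the 48 h cells with the same factors. Against their own 48 h group, iHep_4a1 had 22 members higher and 4 lower, iHep_4a2 8 and 2, and iHep_4a3 12 and 3, beside 42.0%, 40.1% and 40.6% of all genes called. The shares of all genes called higher were 21.2%, 20.4% and 19.6%, and those called lower 20.7%, 19.7% and 21.0%. Cyp4f13, Cyp2s1 and Cyp2c70 led by adjusted p in each. Cyp2s1 was 79.0-fold, 28.1-fold and 51.66-fold higher (edgeR adjusted p = 4.56e-05, 0.000496 and 8.76e-05). Cyp2c70 was at least 74.0-fold, 45.9-fold and 68.6-fold higher than in the 48 h group, which had 0 counts in each case. Lower than at 48 h in all 3 was Cyp2c23, by 6.63-fold, 10.7-fold and 8.70-fold. Without either library of the 48 h group fewer members were called in each comparison, and a lower share of all genes as well.

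The cells with the del2 mutant of Foxa3 were set against 48hr_4a3. No member was called in 48hr_4a3_del2 against 48hr_4a3, where 2.98% of all genes were (1.40% higher and 1.58% lower). With p unadjusted and under 0.05 edgeR gave 4 members, and DESeq2 called 3 and limma 1. Cyp1b1 measured 152 and 148 CPM in 48hr_4a3_del2, against 82.2 and 81.8 CPM in 48hr_4a3. Cyp2f2 measured 0.164 and 0.240 CPM in 48hr_4a3_del2, against 3.81 and 3.21 CPM in 48hr_4a3, and Cyp2s1 0.619 and 0.599 CPM, against 1.09 and 1.35 CPM. These 3 pairs did not overlap, but none passed the test. The mutant libraries are in the low-Rn7sk set and those of 48hr_4a3 in the high one. Their summed fibroblast markers were at 11317 and 12499 CPM, against 28080 and 29088 CPM in 48hr_4a3. Their summed hepatocyte markers were at 769 and 684 CPM, against 16.9 CPM in each 48hr_4a3 library. Apoa1 (496 and 471 CPM) and Apob (272 and 213 CPM) made up nearly all of the mutant's hepatocyte sum. Alb stood at 0.0911 and 0 CPM, against 1.78 and 1.76 CPM in 48hr_4a3. Of the 10 hepatocyte markers, 2 had a median of 1 CPM or more in 48hr_4a3_del2, against 3 in 48hr_4a3. Macrophage and leukocyte markers summed to 55.7 and 61.1 CPM in 48hr_4a3_del2, against 9.85 and 10.1 CPM in 48hr_4a3. Xist, the RNA of the inactive X chromosome, was at 0.146 and 0.160 CPM in 48hr_4a3_del2, against 1149 and 1195 CPM in 48hr_4a3. The mutant cannot be told apart here from the set or from these differences. Against MEF, 48hr_4a3_del2 had 3 members lower and none higher, beside 15.8% of all genes called (7.78% higher and 8.05% lower). They were Cyp2c29 and Cyp2c40, both at trace level in MEF, and Cyp4b1, with 0 counts in 48hr_4a3_del2 against 0.239 and 1.67 CPM in MEF (at least 33.3-fold lower, edgeR adjusted p = 0.0291). None of the 3 calls remained when either del2 library or MEF replicate 2 was left out. With the compared groups alone the direction turned, to 2 members higher and none lower, beside 50% of all genes called.

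Between iHep groups, iHep_4a1 had the most members at the higher level. Against iHep_4a2 it had 14 members higher and 1 lower, beside 11.0% of all genes called (7.10% higher and 3.87% lower). Against iHep_4a3 it had 11 higher and none lower, beside 8.32% (4.41% and 3.92%). iHep_4a2 had 8 higher and 7 lower than iHep_4a3, beside 31.1% (16.0% and 15.1%). Cyp4v3 was the member with the smallest adjusted p between iHep_4a1 and iHep_4a3, at 39.5 ± 24.6 CPM against 3.56 ± 1.73 CPM (SD, n = 6 each; log2 3.47 ± 0.39 SE, edgeR adjusted p = 3.23e-05). It was also 3.48-fold higher in iHep_4a1 than in iHep_4a2 (edgeR adjusted p = 0.0174) and 3.19-fold higher in iHep_4a2 than in iHep_4a3 (adjusted p = 0.00456). iHep_4a2 overlapped each of the other groups. Both calls that involve iHep_4a2 were lost with the library set as a term and in the low set alone, and the call between iHep_4a1 and iHep_4a2 also with the compared groups alone and without iHep_4a2 replicate 3 or 4. In the low set alone the call between iHep_4a1 and iHep_4a3 was lost as well.

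Several members of family 3 were lowest in iHep_4a2, though Cyp3a13 averaged 0.947 CPM there and 0.568 CPM in iHep_4a3. Cyp3a11 measured 1.76, 2.67, 0, 5.22, 1.37 and 1.51 CPM in iHep_4a1 and 0.18 to 4.79 CPM in iHep_4a3, while the 4 iHep_4a2 libraries held 3 counts in all. iHep_4a1 was higher than iHep_4a2 in Cyp3a11, Cyp3a16, Cyp3a41a, Cyp3a41b and Cyp3a44 (edgeR adjusted p between 0.0153 and 0.0374). iHep_4a2 was lower than iHep_4a3 in Cyp3a11, Cyp3a41a, Cyp3a41b and Cyp3a44 (edgeR adjusted p between 0.00471 and 0.0149). Reads of Cyp3a41a, Cyp3a41b and Cyp3a44 overlap in sequence, so these are not separate measurements. All iHep_4a2 libraries are in the low-Rn7sk set, and every one of these calls was lost when the set was a term in the model and in the low set alone. Few genes of any kind were called then. Against iHep_4a2, iHep_4a1 had 0.939% of all genes called with the set term and 0.0244% in the low set, and iHep_4a2 had 4.85% and 1.7% against iHep_4a3. In that set, Cyp3a11 stood at 1.76, 2.67 and 0 CPM in iHep_4a1 and 1.32 CPM in iHep_4a3 replicate 1, against at most 0.073 CPM in iHep_4a2.

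Other members called higher in iHep_4a1 than in iHep_4a3 were Cyp2a12, Cyp2a22, Cyp2c55, Cyp2c65, Cyp2d9, Cyp2d10, Cyp2d26, Cyp2d40, Cyp3a13 and Cyp4f14. Replicate 2 of iHep_4a1, the library with the highest intestinal marker sum, was the highest of its group for Cyp2c55 (24.5 CPM), Cyp2c65, Cyp2d9 (8.51 CPM), Cyp2d10 (3.803 CPM), Cyp2d26, Cyp2d40 (2.39 CPM), Cyp3a13 and Cyp4f14 (17.1 CPM). Without it 6 members were called against iHep_4a3, and the share of all genes called fell from 8.32% to 5.29%. The calls between iHep_4a1 and iHep_4a2 were the least stable, with 1 member left when iHep_4a2 replicate 3 or replicate 4 was dropped and 4 or 5 when iHep_4a1 replicate 5 or 6 was. The share of all genes called in that comparison fell as well. It went from 11.0% to 3.3% and 1.82% without iHep_4a2 replicate 3 and 4, and to 3.58% and 4.28% without iHep_4a1 replicate 5 and 6. Cyp2a12 and its relative Cyp2a22 were high elsewhere, at 9.60, 7.83 and 3.52 CPM (Cyp2a12) in iHep_4a1 replicates 1, 3 and 4 and under 0.1 CPM in replicates 2, 5 and 6. Cyp4b1, an enzyme that oxidises fatty acids and furans in lung and kidney, was 11.1-fold higher in iHep_4a2 than in iHep_4a3 (edgeR adjusted p = 0.0107), at 13.9, 1.03, 2.11 and 0.4999 CPM against 0.0721 to 0.827 CPM. That call was lost without iHep_4a2 replicate 1, the library with 13.9 CPM.

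**Figure D4:**
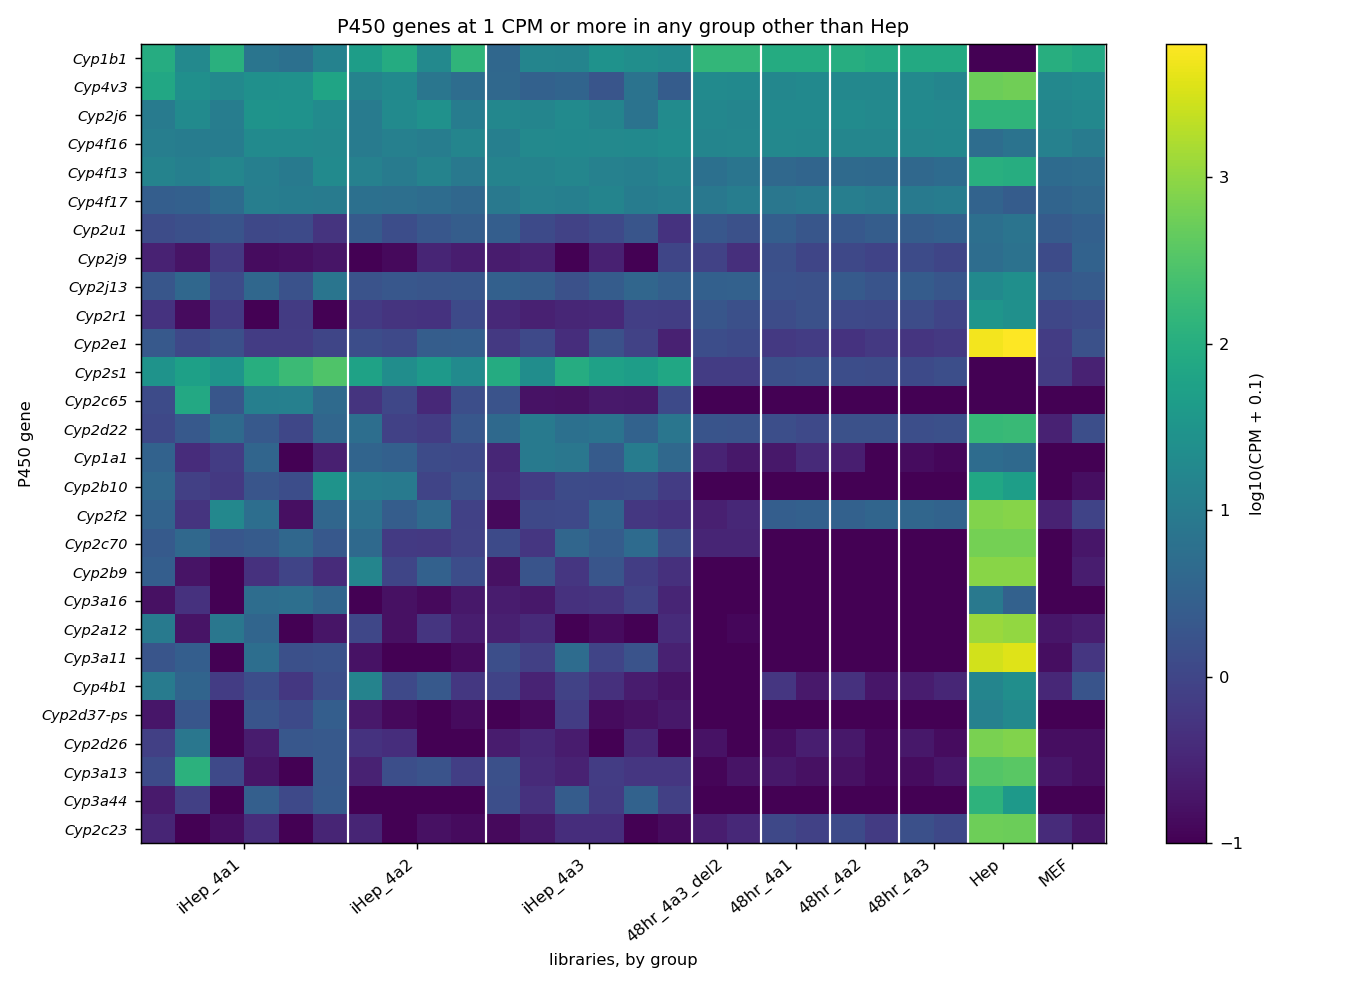
Level of the 28 members that reach a median of 1 CPM in any group other than Hep, as log10(CPM + 0.1), in each library (columns, by group) and gene (rows). Members such as Cyp4f13, Cyp4f16 and Cyp2j6 are seen in all columns, Cyp2s1 in the iHep columns, and Cyp3a members in a part of the iHep_4a1 and iHep_4a3 columns.

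Genes that serve these enzymes were followed beside them. Of 8 electron partners, 4 were called higher and 2 lower than MEF in iHep_4a1, 3 and 3 in iHep_4a2, and 3 and 2 in iHep_4a3, beside 39.9%, 30.7% and 46.6% of all genes called. All 8 were lower than Hep in each iHep group, beside 24.8%, 25.4% and 26.7% of all genes, with median log2 changes of -2.13, -2.44 and -2.32. Por averaged 157 ± 91, 122 ± 57 and 134 ± 35 CPM in iHep_4a1, iHep_4a2 and iHep_4a3, against 641 CPM in Hep and 45.8 ± 4.9 CPM in MEF (edgeR adjusted p against MEF = 0.00319, 0.0207 and 0.00657). Cyb5a averaged 274, 117 and 201 CPM, against 905 CPM in Hep and 26.5 CPM in MEF (adjusted p against MEF = 1.43e-05, 0.00134 and 4.09e-05). Of 13 genes of haem synthesis and breakdown, 4 were higher and 1 lower than MEF in iHep_4a1, 0 and 1 in iHep_4a2, and 4 and 0 in iHep_4a3. These shares (38.5%, 7.69% and 30.8%) lie under those of all genes. Against Hep, 1 of the 13 was higher and 10 were lower in each. Of all genes, 35.3%, 35.2% and 35.3% were higher than Hep, and 24.8%, 25.4% and 26.7% lower.

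Of 22 regulators of P450 genes, 6 were called higher and 3 lower than MEF in iHep_4a1, 4 and 1 in iHep_4a2, and 8 and 2 in iHep_4a3. The shares called (40.9%, 22.7% and 45.5%) are near or under those of all genes. Reads of Hnf4a and the Foxa genes include those of the introduced copies. Nr1i2 averaged 21.0, 6.55 and 17.4 CPM in iHep_4a1, iHep_4a2 and iHep_4a3, against 221 CPM in Hep and 0.119 CPM in MEF (edgeR adjusted p against MEF = 4.08e-05, 0.000641 and 4.34e-05). Nr1i3 stayed at 0.482, 0.314 and 0.595 CPM, against 172 CPM in Hep. Ahr fell in iHep_4a1 and iHep_4a3, to 9.35 and 8.71 CPM, against 81.8 CPM in Hep and 33.6 CPM in MEF (log2 -1.84 and -1.95, edgeR adjusted p = 0.00212 and 0.00103). It averaged 16.8 CPM in iHep_4a2 (edgeR adjusted p = 0.128). Against Hep, 19, 19 and 18 of the 22 regulators were lower in iHep_4a1, iHep_4a2 and iHep_4a3, beside 24.8%, 25.4% and 26.7% of all genes.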

How the data were processed

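Libraries were made from RNeasy RNA with a stranded mRNA kit, per the labels' protocols. The submitters' processing notes name BWA 0.7.12 and the mouse build mm9, and the quantifier is not given in the sources used here. Each deposited file gives an expected count per transcript, beside which the authors, per the file headers, list FPKM and the fraction of the library's reads. Of 30710 transcripts per file, 30190 were named through RefSeq and 181 through GENCODE, and 339 had no name. The deposited FPKM could be rebuilt from count and length to within 0.459%.

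Expected counts were summed per gene (23712 rows), and rounded to whole numbers. In edgeR 4.0.16 (R 4.3.3) the steps were filterByExpr (16499 genes kept), TMM scaling, and a robust quasi-likelihood fit with 1 coefficient per group over all 28 libraries (19 residual degrees of freedom). Each of 18 comparisons was tested 2-sided with the F test, and p-values were adjusted by the Benjamini-Hochberg method. CPM values use the TMM-scaled library size, and member FPKM values are sums of the deposited ones. Samples were grouped by their titles and labels. The scripts were tested on simulated data with known fold changes. DESeq2 1.42.0, limma 3.58.1 on log2(FPKM + 1), other scalings, filters and thresholds, a replicate block, a library set term and leaving out each library served as alternatives. A fold against a group with 0 counts is a lower bound against 3 counts over the group, which covers counting error only. With 1 to 3 counts in a group, levels alone are given. Members and lists were chosen with earlier results of these data known. Members given by library, or by range where a group is large or low, were the gained ones, the 10 highest by FPKM in Hep, the 5 highest in other groups and up to 8 called between groups. Promoter windows, the 250 bases before each gene's start, came from RefSeq on GRCm38.p6, a later build than mm9, and no coordinate was converted.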

Additional observations from a re-analysis of the deposited data

Results flagged for a closer look

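In 33 group levels checked, 6 had a library that stood apart from the rest of its group. The cutoff flags about 1 in 20 groups by chance if values are normal and independent, which was not tested for these CPM values. The members were chosen from these same data and several flags share 1 library, so no excess over chance can be read from them. iHep_4a1 replicate 2 stood apart for Cyp2c65 with 77.74 CPM (others 1.18 to 12.1), for Cyp3a13 with 120.9 CPM (others 0 to 2.13) and for Cyp2d26 with 8.037 CPM (others 0 to 2.09). It is the library with the highest intestinal marker sum. iHep_4a1 replicate 6 stood apart for Cyp2b10 with 29.27 CPM (others 0.515 to 4.15). Its sum over 3 lung airway markers was 476 CPM, against at most 36.8 CPM in iHep_4a2 and iHep_4a3 libraries. Scgb1a1 alone gave 463 CPM of that sum, beside Foxj1 at 13.0 CPM and Sftpc at 0.0419 CPM. Foxj1 was also at 11.4 CPM in iHep_4a1 replicate 5 and at 12.2 CPM in iHep_4a2 replicate 2. iHep_4a2 replicate 1 stood apart for Cyp2b9 with 15.04 CPM (others 0.902 to 3.05). iHep_4a3 replicate 1 stood apart as the lowest for Cyp4f16 with 11.51 CPM (others 18.2 to 21.1), and it is the only low-Rn7sk library of its group.

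For some members the change against MEF differed between iHep groups, by edgeR's test of that difference. Cyp2c65, Cyp2d26, Cyp3a13, Cyp2b10 and Cyp2b9 among them also had a library that stood apart, as given above. Since MEF is shared, this is the difference between the iHep groups. iHep_4a1 exceeded iHep_4a2 on the log2 scale in Cyp2c65 by 4.60 (adjusted p = 0.04), Cyp2d26 by 3.57 (adjusted p = 0.034), Cyp2d37-ps by 4.70 (adjusted p = 0.037) and Cyp3a16 by 5.48 (adjusted p = 0.026). Cyp3a44 averaged 1.128 CPM in iHep_4a1 and 0 in iHep_4a2 (edgeR adjusted p = 0.021). iHep_4a1 exceeded iHep_4a3 in Cyp2c65 by 5.17 (edgeR adjusted p = 0.015), Cyp2d26 by 4.08 (adjusted p = 0.012) and Cyp3a13 by 5.19 (adjusted p = 0.019). iHep_4a2 exceeded iHep_4a3 in Cyp2b10 by 2.70 (edgeR adjusted p = 0.042) and Cyp2b9 by 2.60 (adjusted p = 0.033). For Cyp2d22 the difference of iHep_4a2 from iHep_4a3 was -1.49 (edgeR adjusted p = 0.041), with means of 2.14 and 6.00 CPM. Cyp3a44 averaged 0 in iHep_4a2 and 1.418 CPM in iHep_4a3 (edgeR adjusted p = 0.0049). All of these were lost in the low-Rn7sk set alone, where 0.0244%, 0.354% and 1.7% of all genes were called between iHep_4a1 and iHep_4a2, iHep_4a1 and iHep_4a3, and iHep_4a2 and iHep_4a3, the last group having 1 library.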

How the results depend on the processing

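The total numbers of members called against Hep, and in Hep against MEF, moved by less than 1.5 times under every alternative run. Within them, the 5 higher in iHep_4a1 than in Hep became 3 with the compared groups alone and without either Hep library. The 2 lower in Hep than in MEF became 1 with DESeq2 size factors, no filter, the compared groups alone, and without Hep replicate 1 or either MEF library. Several other totals moved more, and the cause was not tested. With DESeq2, members called were 1, 2 and 1 in 48hr_4a1, 48hr_4a2 and 48hr_4a3 against MEF and 3 in 48hr_4a3_del2 against 48hr_4a3. With limma on log2(FPKM + 1) they were 9 and 4 for iHep_4a1 and iHep_4a2 against MEF, 1, 2 and 2 for the 48 h groups against MEF, 11 for iHep_4a1 against 48hr_4a1, 1 for 48hr_4a3_del2 against 48hr_4a3, and 5, 7 and 9 for iHep_4a1 against iHep_4a2, iHep_4a1 against iHep_4a3 and iHep_4a2 against iHep_4a3. With the compared groups alone they were 6 for iHep_4a1 against MEF, 3, 2 and 3 at 48 h, 9 for iHep_4a1 against 48hr_4a1, 13 for 48hr_4a3_del2 against 48hr_4a3 (65.3% of all genes were called there), and 0, 1 and 9 between iHep groups (0.0214%, 0.605% and 29.9% of all genes), with 3 gained by iHep_4a1. With the library set as a term they were 8 for iHep_4a3 against MEF, 3 for 48hr_4a3_del2 against 48hr_4a3, 0 for iHep_4a1 against iHep_4a2 and 1 for iHep_4a2 against iHep_4a3. In the low-Rn7sk set alone, which leaves 1 iHep_4a3 library, they were 12 for iHep_4a1 and 3 for iHep_4a3 against MEF and 0, 0 and 0 between iHep groups, with 1 gained by iHep_4a3. Set against iHep_4a3 in place of 48hr_4a3, the 48hr_4a3_del2 cells had 15 members called. The sign turned for Cyp4f16 in iHep_4a2 against iHep_4a3, where log2 was 0.13 with the set term and 0.079 in the low set in place of -0.57. It also turned in the low set for Cyp1a1 in iHep_4a3 against Hep, with log2 -4.37 in place of 0.30.

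At 5 CPM, members expressed were 8 in each of iHep_4a1, iHep_4a2 and iHep_4a3, 6 in 48hr_4a3_del2, 5 in each other 48 h group and 4 in MEF, and 3 were gained by iHep_4a1. At 1 FPKM they were 13 in iHep_4a1, 7 in 48hr_4a3_del2 and 8 in 48hr_4a1 and in 48hr_4a3. With 1 CPM required in every library they were 10 in iHep_4a1 and 9 in iHep_4a3.

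With a replicate block, members called were 1, 1 and 1 for the 48 h groups against MEF, 16 for iHep_4a2 against 48hr_4a2, and 2, 6 and 6 between iHep groups in the order above. The numbers share no stated source, and the 80 same-numbered pairs of libraries had correlations of -0.165 to 0.179 with a median of 0.00357, so they were not taken to pair samples.

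Leaving out 1 library at a time, members called ranged from 6 to 25, 4 to 9 and 8 to 18 for iHep_4a1, iHep_4a2 and iHep_4a3 against MEF. Against Hep the ranges were 53 to 61, 55 to 59 and 58 to 63, and for Hep against MEF 54 to 55. Against the 48 h groups they were 7 to 30, 3 to 12 and 5 to 16, for the 48 h groups against MEF 0 to 0 each, and for 48hr_4a3_del2 0 to 0 against 48hr_4a3 and 0 to 2 against MEF. Between iHep groups they were 1 to 20, 6 to 19 and 9 to 14. Members expressed ranged over 20 to 22, 16 to 17 and 12 to 15 in the iHep groups, 13 to 13, 12 to 13 and 12 to 14 in 48hr_4a1, 48hr_4a2 and 48hr_4a3, 11 to 11 in 48hr_4a3_del2, 59 to 59 in Hep and 9 to 13 in MEF. Members gained ranged from 2 to 11, 1 to 4 and 2 to 5.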

Other observations

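Members known to differ between the sexes in mouse liver were read out in the hepatocytes. Cyp2b9 and Cyp2b13, higher in female liver, measured 885 and 901 CPM and 716 and 585 CPM in Hep. Cyp2a4 measured 1310 and 418 CPM there and Cyp3a41a 1328 and 537 CPM. Of the members higher in male liver, Cyp4a12a had 0 counts in both Hep libraries and Cyp4a12b 0.490 and 0.249 CPM, while Cyp2d9 measured 54.8 and 26.3 CPM. Xist, the RNA of the inactive X chromosome, measured 1026 and 1273 CPM in Hep and 585 and 597 CPM in MEF. It measured 0.146 and 0.160 CPM in 48hr_4a3_del2, against 1081 to 1205 CPM in the other 48 h groups. Of the 8 members higher in female liver, 1, 1 and 3 were called higher and 1 each was called lower than MEF in iHep_4a1, iHep_4a2 and iHep_4a3, beside 39.9%, 30.7% and 46.6% of all genes called. All 8 were lower than Hep in each, beside 24.8%, 25.4% and 26.7% of all genes.

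Among P450 genes of families 5 and above, 13 of 19 were tested, and 30.8% of the 13 were called against MEF in each iHep group, beside 39.9%, 30.7% and 46.6% of all genes. Cyp27a1, the mitochondrial sterol 27-hydroxylase, rose in all 3 iHep groups, to means of 91.8, 29.6 and 74.7 CPM in iHep_4a1, iHep_4a2 and iHep_4a3, against 715 CPM in Hep and 1.15 CPM in MEF (log2 6.32, 4.69 and 6.02 over MEF). Cyp51, the sterol 14-demethylase, and Cyp20a1 were called lower than MEF in all 3 groups. Against Hep, 9 of the 13 were lower in each iHep group, beside 24.8%, 25.4% and 26.7% of all genes.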
